A study of Mus musculus with 9 samples.

Results

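The 9 genes described here are mouse genes of osteoclast differentiation and function, namely Tnfrsf11a, Oscar, Nfatc1, Dcstamp, Ocstamp, Atp6v0d2, Acp5, Ctsk and Mmp9. They were taken by symbol from a count table of 52550 genes, all 9 were found there, and 6 had enough counts to be tested among 13255 genes. The counts came from micromass cultures, which are dense spots of forelimb cells from mouse embryos of day 12, kept in a medium that favours cartilage formation. The OPH group received 100 µM of the pan-caspase inhibitor Q-VD-OPH for 6 days, the FMK group received 100 µM of the pan-caspase inhibitor Z-VAD-FMK for 6 days, and the DMSO group received only the solvent of the inhibitors over the same days. Each group held 3 libraries, which the labels call biological replicates of limb-derived chondroblasts without saying whether equally numbered libraries share a litter or a day. No strain or genotype is given in the labels, and the cells were an unsorted limb preparation rather than an osteoclast culture. Q-VD-OPH is a quinoline-capped peptide with a difluorophenoxymethyl ketone group, and Z-VAD-FMK is a benzyloxycarbonyl-capped peptide with a fluoromethyl ketone group. Both comparisons with DMSO use the same 3 DMSO libraries, so they are not independent of each other.

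Osteoclasts are the multinucleated cells that resorb bone and mineralised cartilage, and they form by fusion of precursors of the monocyte and macrophage lineage. The cytokine RANKL binds its receptor RANK, the product of Tnfrsf11a, on precursors that depend on the growth factor CSF1, and signals from RANK and from receptors coupled to the adaptors DAP12 (Tyrobp) and the Fc receptor gamma chain (Fcer1g) lead to activation of NFATc1, the master transcription factor of the lineage. NFATc1 acts with PU.1, MITF and AP-1 proteins on genes for fusion, acid secretion and matrix breakdown. Several of these genes are not restricted to osteoclasts: Ctsk, Mmp9, Acp5 and Nfatc1 are also expressed by other connective tissue, immune or endothelial cells.

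Most tested osteoclast genes were lower with both inhibitors than with DMSO, and the costimulatory receptor Oscar and the fusion genes Dcstamp and Ocstamp had few or no counts in most libraries. With OPH, 5 of the 6 tested members fell (Mmp9, Tnfrsf11a, Ctsk, Atp6v0d2 and Nfatc1), and 0 rose, where 16.7% of all tested genes were called, 8.61% higher and 8.11% lower. With FMK, 4 of the 6 fell (Mmp9, Tnfrsf11a, Ctsk and Atp6v0d2) and 0 rose, where 20.6% of all tested genes were called, 10.4% higher and 10.1% lower. Atp6v0d2 reached the count cutoff in 3 DMSO, 1 FMK and 0 OPH libraries. It was thus tested only through the group where it was high and had to differ. Its fall is kept in these counts and in the medians of the 6 tested members but is no support for them. Apart from it, Mmp9, Tnfrsf11a and Ctsk were called lower with both inhibitors and Nfatc1 with OPH. The Ctsk call with FMK and the Nfatc1 call with OPH were not given under 6 and 4 of 12 other settings or left-out libraries. The median log2 fold change of the 6 tested members was -2.16 with OPH and -2.18 with FMK, beside -0.0025 and -0.0064 over all tested genes. With Atp6v0d2 left out, the median was the value of Acp5, -2.04 with OPH and -1.35 with FMK. Between OPH and FMK, edgeR's quasi-likelihood test called 0 of the 6 members at an adjusted p under 0.05, where 8.86% of all tested genes were called, 4.2% higher and 4.66% lower. At an unadjusted p under 0.05, 1 member was higher and 1 was lower with OPH, DESeq2 called 1 and limma-voom called 0. For higher members against DMSO, the count at an unadjusted p under 0.05 was also 0 with both inhibitors, and DESeq2 called 6 lower with OPH and 4 lower with FMK. Over all genes and in either direction, DESeq2 called 2143 with OPH and 2702 with FMK. The share of all genes at the unadjusted threshold is not given, so those counts only describe the members. The reported fit held group alone. With a block for library number, edgeR called 6 lower with OPH and 5 lower with FMK, and Tnfrsf11a higher with OPH than with FMK. Against DMSO, the block also raised the number of all tested genes called, to 3039 with OPH and 3552 with FMK in either direction. Levels below are CPM, the counts of transcript ends scaled to the library's TMM-adjusted total, and every adjusted p is from edgeR with Benjamini-Hochberg adjustment over all tested genes unless another tool is named. In bulk RNA of this kind, fewer cells of a type and less RNA per cell cannot be told apart.

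**Figure D1:**
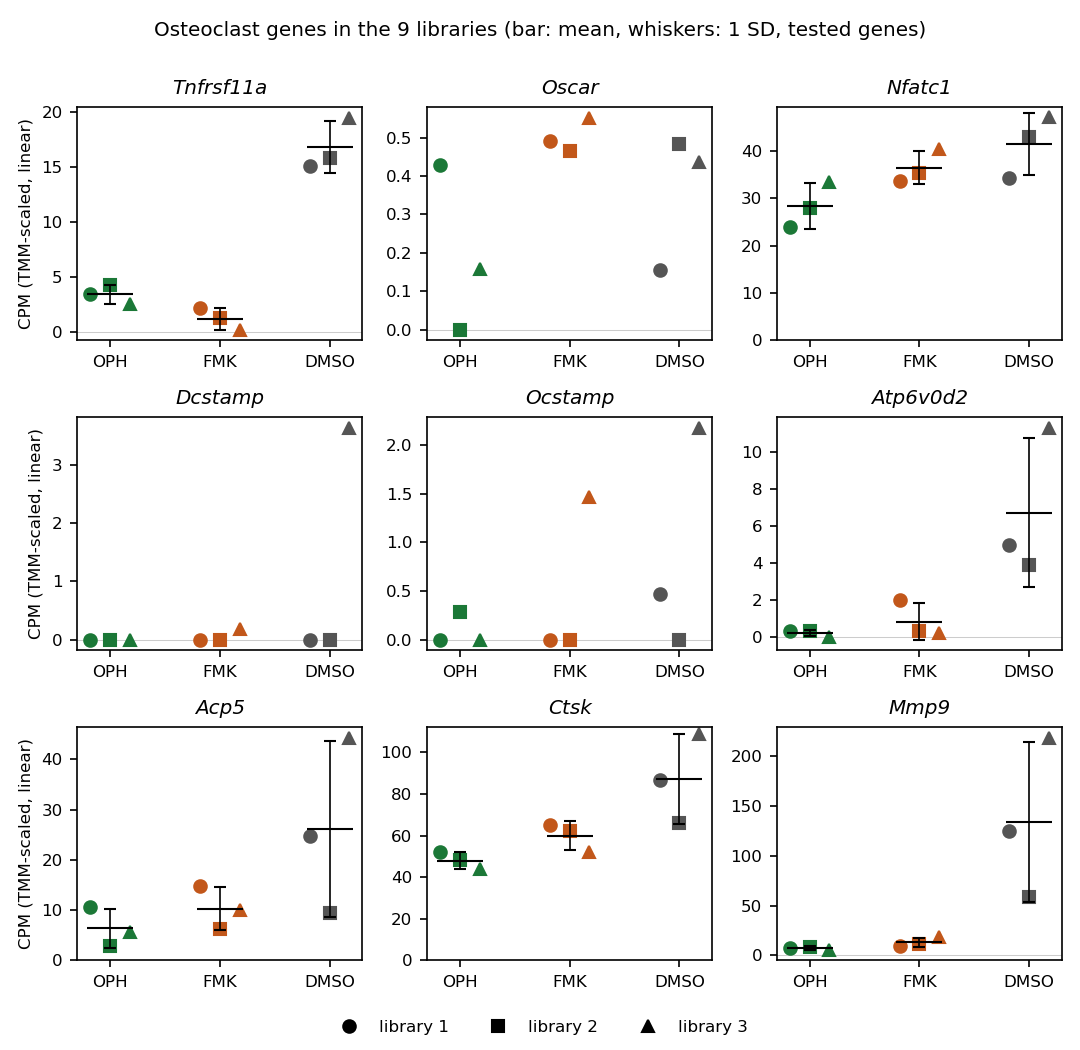
CPM of each of the 9 osteoclast genes in each library, on a linear axis that differs between panels, with OPH, FMK and DMSO from left to right and marker shape giving the library number. Horizontal bars are group means and whiskers are 1 SD over 3 libraries for the 6 tested genes. The DMSO libraries of Mmp9 lie at 58.9 to 218 CPM, above all 6 inhibitor libraries, and DMSO library 3 has the highest DMSO value of all genes shown except Oscar.

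The libraries held 5659789 to 6867350 counts each, spread over 16588 to 17656 detected genes. The cultures carried cartilage transcripts, as their label says, with a summed level of 9 cartilage genes of 964 to 1780 CPM with OPH, 993 to 1067 CPM with FMK and 1937 to 3045 CPM with DMSO. They also carried transcripts of macrophages, the lineage that osteoclasts come from, and the summed level of 19 macrophage markers was 197 to 222 CPM with OPH, 31.9 to 46.8 CPM with FMK and 1119 to 2250 CPM with DMSO. DMSO library 3 stood apart from the other DMSO libraries, with an adipocyte sum of 463 CPM against 2243 and 1983 CPM in libraries 1 and 2 and a skeletal muscle sum of 464 CPM against 124 and 168 CPM. The lowest adipocyte sum and the highest muscle sum of the OPH and FMK groups were also in library 3. Because of this, results are given below also without DMSO library 3 or without all libraries numbered 3 where the value changed.

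Stretches upstream of 4 of the 9 members were found in RefSeq, each holding 250 bases before to 50 bases after an annotated start in GRCm38.p6, and are shown for the receptor that fell most clearly, for 2 effector enzymes and for the receptor with almost no counts. The Tnfrsf11a window was chr1:105780473-105780772 on the plus strand, the Acp5 window was chr9:22130549-22130848 on the minus strand, the Ctsk window was chr3:95498960-95499259 on the plus strand and the Oscar window was chr7:3616108-3616407 on the minus strand. Capitals mark matches, on either strand, to the core letters GGAAA bound by NFAT proteins, GAGGAA bound by PU.1 and CATGTG bound by MITF, and no window held the AP-1 letters TGANTCA.
Tnfrsf11a promoter: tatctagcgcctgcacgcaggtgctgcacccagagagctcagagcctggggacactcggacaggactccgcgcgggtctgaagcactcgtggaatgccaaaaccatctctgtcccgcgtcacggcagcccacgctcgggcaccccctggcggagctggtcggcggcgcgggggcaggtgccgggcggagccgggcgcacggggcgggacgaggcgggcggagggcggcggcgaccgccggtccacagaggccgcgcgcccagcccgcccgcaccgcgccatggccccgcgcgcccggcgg
Acp5 promoter 1: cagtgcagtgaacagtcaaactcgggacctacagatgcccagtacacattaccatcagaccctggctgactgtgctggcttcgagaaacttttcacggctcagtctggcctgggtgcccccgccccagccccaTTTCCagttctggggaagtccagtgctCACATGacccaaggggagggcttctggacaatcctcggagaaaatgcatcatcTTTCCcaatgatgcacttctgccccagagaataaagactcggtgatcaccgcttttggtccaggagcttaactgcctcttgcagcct
Ctsk promoter: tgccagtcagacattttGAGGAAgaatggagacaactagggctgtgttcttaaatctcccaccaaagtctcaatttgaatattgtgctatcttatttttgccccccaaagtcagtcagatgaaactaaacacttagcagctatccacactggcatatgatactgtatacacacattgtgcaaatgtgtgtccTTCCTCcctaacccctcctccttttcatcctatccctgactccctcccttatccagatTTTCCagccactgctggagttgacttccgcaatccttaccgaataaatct
Oscar promoter: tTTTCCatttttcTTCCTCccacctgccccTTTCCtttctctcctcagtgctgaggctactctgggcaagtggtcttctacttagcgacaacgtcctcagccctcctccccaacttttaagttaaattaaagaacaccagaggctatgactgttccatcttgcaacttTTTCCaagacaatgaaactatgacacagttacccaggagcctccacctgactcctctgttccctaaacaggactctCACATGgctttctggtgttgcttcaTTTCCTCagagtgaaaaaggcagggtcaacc
The Tnfrsf11a window, of 76.7% G and C, held no match to any of these letters. The Acp5 window held 2 NFAT matches and 1 MITF match, the Ctsk window 1 NFAT and 2 PU.1 matches, and the Oscar window 4 NFAT, 2 PU.1 and 1 MITF matches, of which the last NFAT and PU.1 matches share letters. Among all 32851 promoter windows of the same length, 61.3% held the NFAT letters, 28.3% the PU.1 letters, 14.2% the MITF letters and 7.81% the AP-1 letters, so these matches describe the windows and mark no site. Acp5 has 3 annotated windows, of which window 1, the one with the most matches, is shown. Windows 2 and 3 held 1 NFAT match each and no match to the other letters. Counts of transcript ends cannot tell which start was used.

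Tnfrsf11a, which encodes RANK (chr1:105780718-105847981, plus strand, GRCm38), was the member with the smallest adjusted p in both comparisons with DMSO. It had 3.42, 4.27 and 2.53 CPM in the OPH libraries, 2.12, 1.24 and 0.184 CPM in the FMK libraries and 15.1, 15.8 and 19.5 CPM in the DMSO libraries. The 3 groups did not overlap, with DMSO highest and FMK lowest, and the FMK libraries rested on 13, 8 and 1 counts. Tnfrsf11a fell 4.89-fold with OPH (log2 fold change -2.29 ± 0.38, SE, adjusted p = 0.000346) and 13.7-fold with FMK (-3.77 ± 0.44, adjusted p = 4.71e-06). Without FMK library 1 the log2 fold change with FMK was -4.45, and without DMSO library 3 it was -2.17 with OPH and -3.65 with FMK. Tnfrsf11a was the only member with a higher mean with OPH than with FMK among the 6 tested, by 1.48 ± 0.47 on the log2 scale (95% interval from 0.49 to 2.48, adjusted p = 0.0586). That difference did not pass the threshold in the reported fit. It did with a block for library number (1.49, adjusted p = 0.0243), with library size scaling alone (adjusted p = 0.0363), with no filter (0.0104), with DESeq2 (0.0277) and without FMK library 1 (2.16, adjusted p = 0.0282).

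Oscar, which encodes a costimulatory receptor that signals through the Fc receptor gamma chain (chr7:3609813-3616157, minus strand), had 3, 0 and 1 counts in the OPH libraries, 3, 3 and 3 counts in the FMK libraries and 1, 3 and 3 counts in the DMSO libraries. No library held more than 3 counts, and the gene was not tested. Other receptors that mark mature osteoclasts were equally scarce. Calcr, the calcitonin receptor, had 4 counts over the OPH libraries, 2 over the FMK libraries and 4 over the DMSO libraries. Siglec15, a DAP12-coupled receptor of osteoclasts, had 0 counts in all 9 libraries.

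Nfatc1 (chromosome 18, minus strand) had the smallest fold change against DMSO among the tested members, with either inhibitor. It had 23.8, 27.9 and 33.4 CPM in the OPH libraries, 33.6, 35.3 and 40.3 CPM in the FMK libraries and 34.2, 42.9 and 47.1 CPM in the DMSO libraries. All OPH libraries were below all DMSO libraries, whereas the FMK and DMSO libraries overlapped. Nfatc1 fell 1.46-fold with OPH (log2 fold change -0.55 ± 0.16, adjusted p = 0.0213), and its log2 fold change with FMK was -0.19 ± 0.15 (95% interval -0.51 to 0.14, adjusted p = 0.456). The call with OPH was lost without OPH library 1, OPH library 2, DMSO library 2 or DMSO library 3, with adjusted p of 0.108, 0.0735, 0.0701 and 0.101. An antisense gene overlaps Nfatc1 in the annotation and was not analysed here, and whether the counting used strand is not given in the sources used here.

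The fusion genes Dcstamp and Ocstamp, which encode transmembrane proteins needed for precursors to fuse, had their highest counts in DMSO library 3, which held 25 counts of Dcstamp and 15 of Ocstamp. Dcstamp (chr15:39745930-39760938, plus strand) had 0, 0 and 0 counts in the OPH libraries, 0, 0 and 1 counts in the FMK libraries and 0, 0 and 25 counts in the DMSO libraries. Ocstamp (chr2:165393760-165400405, minus strand) had 0, 2 and 0 counts with OPH, 0, 0 and 8 counts with FMK and 3, 0 and 15 counts with DMSO. Neither gene passed the filter on low counts, and DMSO libraries 1 and 2 had 3 counts or fewer of each. With no filter, edgeR gave Dcstamp an adjusted p of 0.0150 with OPH and 0.0788 with FMK, and Ocstamp 0.230 and 0.739. Summed over each group, Dcstamp was 8.70-fold lower with OPH than with DMSO against a floor of 3 counts over the group. The lower end of the 95% counting interval of that fold was 6.57. DMSO exceeded FMK 23.1-fold for Dcstamp (95% counting interval 3.78 to 948). For Ocstamp, DMSO exceeded OPH 9.40-fold (2.25 to 83.5) and FMK 2.08-fold (0.859 to 5.52). These intervals cover counting error only, and without DMSO library 3 no Dcstamp count with DMSO remains.

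Atp6v0d2 encodes a subunit of the vacuolar proton pump that is enriched in osteoclasts, where it takes part in acid secretion and in fusion (chr4:19876841-19922605, minus strand). It had 0.285, 0.284 and 0 CPM in the OPH libraries, 1.96, 0.310 and 0.184 CPM in the FMK libraries and 4.98, 3.87 and 11.3 CPM in the DMSO libraries. Every DMSO library was above every inhibitor library, and the inhibitor libraries held 12 counts or fewer each. Atp6v0d2 fell 31.5-fold with OPH (log2 fold change -4.98 ± 0.86, adjusted p = 0.000707) and 7.99-fold with FMK (-3.00 ± 0.71, adjusted p = 0.00637). The gene entered the test only through the DMSO libraries, so these adjusted p describe the fall and are no support for it. Without DMSO library 3 the log2 fold changes were -4.37 and -2.39, the second with an adjusted p of 0.0483. Without FMK library 1 the change with FMK was -4.64, and with libraries 1 and 2 of each group only it was -1.96 with an adjusted p of 0.0815.

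Acp5 encodes tartrate-resistant acid phosphatase, the enzyme stained to identify osteoclasts (chr9:22126727-22135711, minus strand). Its level was 10.6, 2.84 and 5.70 CPM in the OPH libraries, 14.7, 6.20 and 9.93 CPM in the FMK libraries and 24.7, 9.36 and 44.3 CPM in the DMSO libraries. The groups overlapped, since DMSO library 2 was below the highest libraries of both inhibitor groups, but within each library number the order was OPH lowest and DMSO highest. The log2 fold change was -2.04 ± 0.70 with OPH (adjusted p = 0.108) and -1.35 ± 0.68 with FMK (adjusted p = 0.235), so Acp5 passed neither test. With library number as a block, it fell with OPH (-1.99, adjusted p = 6.75e-05) and with FMK (-1.25, adjusted p = 0.00273). Without DMSO library 3 the values were -1.42 with OPH and -0.73 with FMK, and without DMSO library 2 the change with OPH was -2.44 with an adjusted p of 0.0275.

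Ctsk encodes cathepsin K, the main collagen-degrading protease of osteoclasts (chr3:95499256-95509362, plus strand). It had 51.9, 48.1 and 43.7 CPM in the OPH libraries, 65.2, 62.3 and 52.1 CPM in the FMK libraries and 86.5, 65.8 and 109 CPM in the DMSO libraries. The groups did not overlap, although FMK library 1 and DMSO library 2 were nearly level, as were OPH library 1 and FMK library 3. Ctsk fell 1.82-fold with OPH (log2 fold change -0.86 ± 0.16, adjusted p = 0.00130) and 1.45-fold with FMK (-0.54 ± 0.15, adjusted p = 0.0217). Without DMSO library 3 the change with FMK was -0.34 with an adjusted p of 0.107, and the call with FMK was lost as well without FMK library 2 (adjusted p = 0.0629), FMK library 3 (0.0856) or DMSO library 1 (0.0586). With libraries 1 and 2 of each group only, the change with FMK was -0.26 (adjusted p = 0.234). With only the 2 groups compared in the fit, the adjusted p was 0.0521.

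Mmp9, a gelatinase that osteoclasts and other myeloid cells secrete, had the highest mean level of the members with DMSO, although Ctsk was above it in DMSO library 2 (chr2:164940780-164955850, plus strand; levels are counts of transcript ends and need no scaling by length). It had 7.84, 8.96 and 5.70 CPM in the OPH libraries, 9.47, 11.9 and 18.4 CPM in the FMK libraries and 125, 58.9 and 218 CPM in the DMSO libraries. The 3 groups did not overlap, and the lowest DMSO library was above the highest inhibitor library, FMK library 3. Mmp9 fell 17.8-fold with OPH (log2 fold change -4.15 ± 0.58, adjusted p = 0.00452) and 10.2-fold with FMK (-3.35 ± 0.55, adjusted p = 0.00689). Without DMSO library 3 both calls held, with log2 fold changes of -3.60 and -2.79. With libraries 1 and 2 of each group only, the change with OPH was -3.45 (adjusted p = 0.00551).

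**Figure D2:**
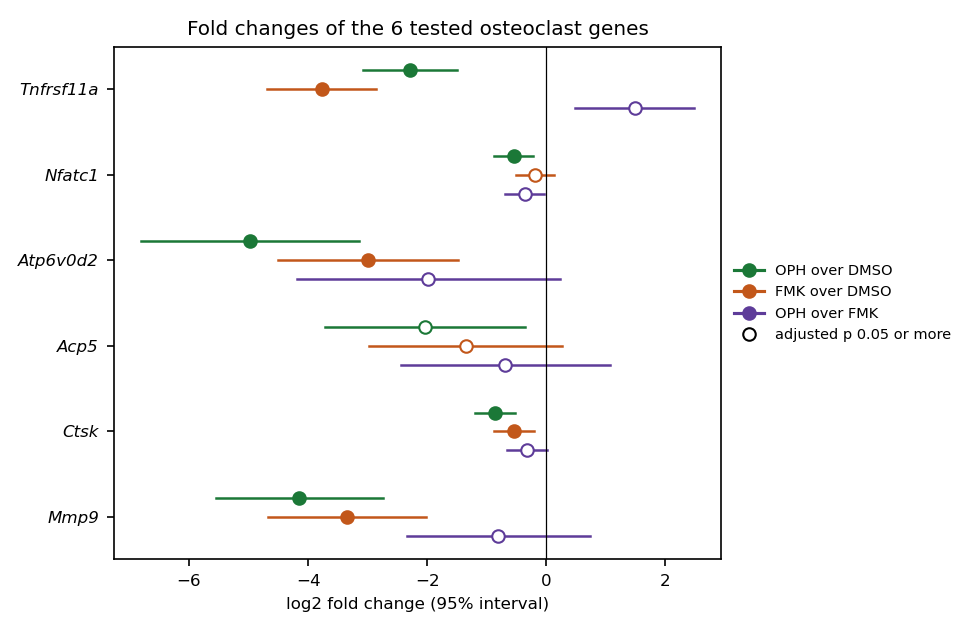
Log2 fold changes of the 6 tested osteoclast genes, with 95% intervals from the edgeR fit over 9 libraries, for OPH over DMSO (green), FMK over DMSO (orange) and OPH over FMK (purple). Filled points have an adjusted p under 0.05, and Atp6v0d2 entered the test only through the DMSO libraries. Changes against DMSO run from -4.98 for Atp6v0d2 with OPH to -0.19 for Nfatc1 with FMK, and Tnfrsf11a is the only gene whose OPH over FMK estimate lies right of 0.

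The comparison of OPH with FMK set the inhibitors side by side at the same dose and time. For Ctsk, Mmp9 and Nfatc1 every OPH library was below every FMK library, and for Tnfrsf11a every OPH library was above every FMK library. None of the 6 differences passed the test. The closest libraries were nearly level for Ctsk (OPH library 1 at 51.9 and FMK library 3 at 52.1 CPM) and Nfatc1 (OPH library 3 at 33.4 and FMK library 1 at 33.6 CPM). How many of all tested genes separate in this way was not counted, so the separations only describe these members. The log2 fold change was -0.32 for Ctsk (95% interval -0.66 to 0.014, adjusted p = 0.240), -0.80 for Mmp9 (-2.34 to 0.73, adjusted p = 0.535) and -0.36 for Nfatc1 (-0.69 to -0.030, adjusted p = 0.174). Atp6v0d2 and Acp5 overlapped between the inhibitors, with log2 fold changes of -1.98 (-4.19 to 0.23, adjusted p = 0.279) and -0.69 (-2.44 to 1.07, adjusted p = 0.664). Without FMK library 1, the value was -0.34 for Atp6v0d2, and that for Tnfrsf11a was 2.16 with an adjusted p of 0.0282. The intervals leave room for differences of several-fold in Atp6v0d2, Acp5 and Mmp9 in the direction of less RNA with OPH. Ordered by mean level, OPH was lowest, FMK intermediate and DMSO highest for Nfatc1, Atp6v0d2, Acp5, Ctsk and Mmp9, and FMK was lowest for Tnfrsf11a.

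DMSO library 3 held more of the osteoclast transcripts than the other DMSO libraries. All 6 tested members were above the mean of DMSO libraries 1 and 2 there, by 2.60-fold for Acp5, 2.56-fold for Atp6v0d2, 2.38-fold for Mmp9, 1.43-fold for Ctsk, 1.26-fold for Tnfrsf11a and 1.22-fold for Nfatc1. Of all tested genes 49.7% were above that mean and 2.32% were at least 2 times it. Among other genes of the pathway, Slc9b2, a sodium and proton exchanger of osteoclasts, was 2.65-fold the mean. Car2, the carbonic anhydrase that supplies protons for secretion, was 2.24-fold and Tnfrsf11b, the decoy receptor of RANKL, 2.89-fold the mean, and these 3 were chosen for their high values. Tnfsf11, which encodes RANKL itself, was 7.38-fold the mean on few counts, at 1.74 against 0.236 CPM. Of the other tested pathway genes as lists, 5 of 13 for acid secretion (median ratio 0.949), 5 of 14 receptors and adaptors (0.879), 4 of 10 transcription factors (0.967) and 6 of 7 fusion genes (1.12) were higher in library 3. Of the ligands and the decoy receptor, 2 of 4 tested were higher there, with a median ratio of 1.91. Markers of macrophages went the other way, since 1 of 18 tested was higher in library 3 and the median ratio was 0.579. The tested repressors of osteoclast formation were higher in library 3 for 0 of 4 genes, with a median ratio of 0.754. Adipocyte and muscle genes had median ratios of 0.107 and 2.87, and cartilage genes were higher for 9 of 9, with a median of 1.26. The part of these in the level of osteoclast genes in library 3 was not tested, and this is 1 library without a replicate of its own.

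**Figure D3:**
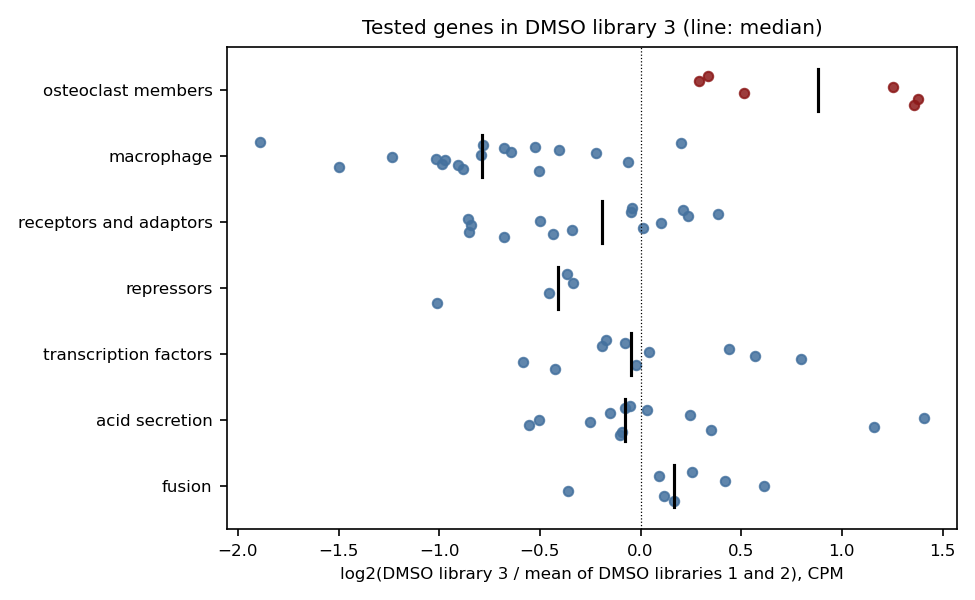
Log2 ratio of the CPM in DMSO library 3 to the mean CPM of DMSO libraries 1 and 2, 1 point per tested gene, for the osteoclast members (red) and 6 other gene lists (blue). Vertical bars are list medians and the dotted line marks equal levels. All 6 osteoclast members lie right of the line, while 17 of 18 macrophage markers lie left of it.

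Across the 9 libraries, the tested members varied together to different degrees, with Pearson correlations of log2 CPM of 0.225 (Nfatc1 and Tnfrsf11a) to 0.934 (Atp6v0d2 and Ctsk). These values describe 9 libraries that fall into 3 groups and so share the difference between DMSO and the inhibitors. The gene most like each member was Thra for Tnfrsf11a (r = 0.983), Hacd1 for Nfatc1 (0.973), Tpst1 for Atp6v0d2 (0.983), Khdrbs1 for Acp5 (0.949), Usmg5 for Ctsk (0.977) and Cops9 for Mmp9 (0.977). The next 2 were Gpr137b and Dpysl5 for Tnfrsf11a, Wdr47 and Actr3 for Nfatc1, Vkorc1 and Dynll2 for Atp6v0d2, Epha3 and Slc52a2 for Acp5, Zmat2 and BC029722 for Ctsk, and Rnf7 and Nt5dc2 for Mmp9.

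Macrophage markers were lower with both inhibitors and lowest with FMK. With OPH, 16 of 18 tested macrophage markers fell, with a median log2 fold change of -2.72, and with FMK 18 of 18 fell, with a median of -5.78. Between OPH and FMK, 12 of 18 were higher with OPH and the median was 3.21, or 3.04 with Fcrls at its bound, whereas that of the 6 osteoclast members was -0.52. Among the 12, C1qc, C1qb and Lyz2 were not called under 8, 5 and 5 of 12 other settings or left-out libraries. Adgre1 and Cx3cr1 were not called under 2 each. In the other direction, Cd68, Cd53, Aif1, Mrc1 and Itgam gained a call under 2 to 5 of these alternatives. Mrc1, Itgam and Fcrls among the 18 were tested only through the DMSO libraries. Cd68, a lysosomal glycoprotein of macrophages, was at 10.9 ± 0.691 CPM with OPH, 7.04 ± 1.37 CPM with FMK and 88.3 ± 16.8 CPM with DMSO (SD, n = 3 each). Adgre1, which encodes F4/80, was at 4.88 ± 1.34, 0.388 ± 0.521 and 67.0 ± 21.1 CPM with OPH, FMK and DMSO. Laptm5, a lysosomal protein of haematopoietic cells, was at 18.5 ± 4.18 CPM with OPH, 1.60 ± 1.14 CPM with FMK and 119 ± 25.0 CPM with DMSO. Coro1a, an actin regulator of leukocytes, was at 4.57 ± 1.66, 0.222 ± 0.0919 and 18.9 ± 1.55 CPM in the same order, and Ptprc, which encodes CD45, had 113, 2 and 330 counts over the groups. Of the 19 macrophage markers, 2 were at 0 counts in all FMK libraries, 0 in all OPH libraries and 1 in all DMSO libraries. The summed marker level moved with the osteoclast genes in both comparisons with DMSO, and its part in their fall was not tested.

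**Figure D4:**
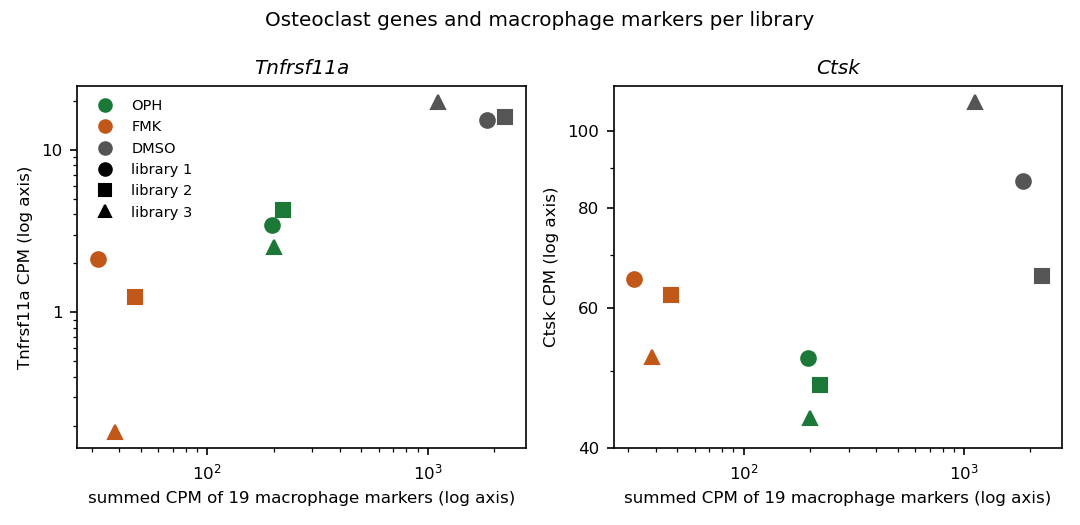
CPM of Tnfrsf11a (left) and Ctsk (right) against the summed CPM of 19 macrophage markers in each library, with all axes logarithmic, colour giving the group and shape the library number. Between groups, Tnfrsf11a is lowest where the macrophage sum is lowest, with FMK at 31.9 to 46.8 CPM, whereas Ctsk is lowest with OPH at 197 to 222 CPM. Within groups the order differs. FMK library 1 has the lowest sum, 31.9 CPM, and the highest Tnfrsf11a of the FMK libraries, 2.12 CPM. DMSO library 3 has the lowest sum of the DMSO libraries, 1119 CPM, and their highest Tnfrsf11a, 19.5 CPM.

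Among the ligands and the decoy receptor of the pathway, 1 of 4 tested genes rose with OPH, 2 rose with FMK and none was called lower in either comparison with DMSO. The call with OPH was lost without OPH library 1, OPH library 2, DMSO library 1 or DMSO library 3, and 1 of the calls with FMK was lost when any FMK library, DMSO library 1 or DMSO library 2 was left out. Csf1, the growth factor of macrophages and osteoclast precursors, was at 146 ± 14.1 CPM with OPH, 181 ± 22.1 CPM with FMK and 114 ± 5.30 CPM with DMSO (SD, n = 3 each), and rose in both comparisons (log2 fold change 0.36 ± 0.10, adjusted p = 0.0220 and 0.67 ± 0.10, adjusted p = 0.000121). Tnfsf11, which encodes RANKL, was at 0.443 ± 0.286 CPM with OPH, 1.77 ± 0.753 CPM with FMK and 0.739 ± 0.874 CPM with DMSO and passed no test. Tnfrsf11b was at 3.29 ± 1.18, 10.9 ± 2.04 and 4.76 ± 3.25 CPM with OPH, FMK and DMSO. It was lower with OPH than with FMK (-1.73 ± 0.42, adjusted p = 0.0165) and higher with FMK than with DMSO (1.18 ± 0.41, adjusted p = 0.0498), a call that 7 of 12 other settings or left-out libraries did not give.

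Of 14 tested receptors and signalling adaptors, 9 fell and 0 rose with OPH, and 9 fell and 1 rose with FMK, with median log2 fold changes of -1.54 and -2.39. Tyrobp was at 12.3 ± 1.48 CPM with OPH, 1.07 ± 0.409 CPM with FMK and 119 ± 24.7 CPM with DMSO, a fall of 9.60-fold with OPH (adjusted p = 2.64e-10) and 110-fold with FMK (adjusted p = 1.30e-12). Fcer1g was at 22.4 ± 4.76, 1.87 ± 0.889 and 186 ± 56.4 CPM in the same order of groups, and Csf1r, the receptor of CSF1, at 18.5 ± 3.06, 1.51 ± 1.02 and 171 ± 46.4 CPM. Trem2, a DAP12-coupled receptor, was at 2.74 ± 0.869 CPM with OPH, 0.219 ± 0.0794 CPM with FMK and 30.1 ± 4.32 CPM with DMSO. All 4 were higher with OPH than with FMK, by 11.5-fold for Tyrobp (adjusted p = 1.67e-06), 12.0-fold for Fcer1g (0.00306), 12.2-fold for Csf1r (0.00287) and 11.5-fold for Trem2 (0.000252). Rac2, a small GTPase of haematopoietic cells, was at 4.18 ± 0.429, 1.43 ± 0.379 and 26.4 ± 5.80 CPM with OPH, FMK and DMSO and fell in both comparisons. Itgb3, the beta chain of the vitronectin receptor by which osteoclasts attach, moved in opposite directions, at 13.1 ± 1.79 CPM with OPH, 34.6 ± 0.996 CPM with FMK and 21.4 ± 2.89 CPM with DMSO. It fell 1.63-fold with OPH (adjusted p = 0.00684), rose 1.61-fold with FMK (adjusted p = 0.00452) and differed between the inhibitors (log2 fold change -1.40 ± 0.17, adjusted p = 5.09e-05). Btk and Tec, both kinases, were counted among the falls but reached the count cutoff in all DMSO libraries and in 0 and 1 inhibitor libraries, so they too were tested only through DMSO. The falls with OPH of Tec and of Syk, another kinase, were not called under 5 and 6 of 12 other settings or left-out libraries. Most genes of this list are also expressed by macrophages, whose markers fell beside them.

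Transcription factors of the pathway split. With OPH 3 of 10 tested rose and 2 fell, and with FMK 5 rose and 3 fell. Spi1, which encodes PU.1, was at 8.53 ± 0.748 CPM with OPH, 1.05 ± 0.216 CPM with FMK and 36.5 ± 6.07 CPM with DMSO, and fell 4.26-fold with OPH (adjusted p = 7.20e-07) and 33.9-fold with FMK (adjusted p = 1.69e-10). Tfec, a relative of MITF found in macrophages and osteoclasts, had 1 count over the OPH libraries, 0 over the FMK libraries and 94 over the DMSO libraries. Against the floor of 3 counts it was 28.9-fold lower with FMK (lower end of the 95% counting interval 23.1). It reached the count cutoff in the 3 DMSO libraries alone and so had to differ. Mitf itself rose, at 21.7 ± 3.59 CPM with OPH, 24.5 ± 5.62 CPM with FMK and 13.8 ± 0.114 CPM with DMSO (adjusted p = 0.0295 and 0.00522), although 7 of 12 other settings or left-out libraries did not give the call with OPH. Relb, a subunit of the non-canonical NF-kB pathway that RANK activates, also rose, at 30.2 ± 2.82 CPM with OPH, 28.6 ± 2.67 CPM with FMK and 15.3 ± 2.69 CPM with DMSO (adjusted p = 0.000404 and 0.000691).

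Repressors of osteoclast formation did not share a direction, with 1 of 4 tested higher and 2 lower with OPH and 1 higher and 3 lower with FMK. Irf8, which holds back NFATc1 in precursors, fell, at 2.92 ± 0.627 CPM with OPH, 1.14 ± 0.625 CPM with FMK and 12.4 ± 6.07 CPM with DMSO (adjusted p = 0.00173 and 3.32e-05). Pirb, an inhibitory receptor of myeloid cells, had 26 counts over the OPH libraries, 0 over the FMK libraries and 236 over the DMSO libraries. Against the floor of 3 counts it was 72.6-fold lower with FMK (lower end of the 95% counting interval 58.6). It too reached the count cutoff in all DMSO libraries and in 1 inhibitor library only. Bcl6, a transcriptional repressor of osteoclast genes, averaged 26.7 CPM with OPH, 32.2 CPM with FMK and 18.6 CPM with DMSO and rose in both comparisons (log2 fold change 0.52 ± 0.17, adjusted p = 0.0447 and 0.79 ± 0.17, adjusted p = 0.00276), although 8 of 12 other settings or left-out libraries did not give the call with OPH. Id2 was at 189 ± 6.57, 130 ± 11.4 and 229 ± 29.6 CPM with OPH, FMK and DMSO, and fell with FMK (-0.81 ± 0.10, adjusted p = 1.06e-05). Its level was higher with OPH than with FMK (0.54 ± 0.10, adjusted p = 0.00267).

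Genes of acid secretion other than Atp6v0d2 were split. Of 13 tested genes, 2 rose and 3 fell with OPH, and 2 rose and 5 fell with FMK, with median log2 fold changes of -0.22 and -0.27. Tcirg1, which encodes the a3 subunit of the proton pump, rose, at 47.3 ± 10.3 CPM with OPH, 64.4 ± 9.50 CPM with FMK and 26.8 ± 5.16 CPM with DMSO (1.76-fold, adjusted p = 0.00420 and 2.40-fold, adjusted p = 6.79e-05). Clcn7, the chloride and proton exchanger of the ruffled border, was at 33.8 ± 3.10, 26.3 ± 1.32 and 30.8 ± 5.80 CPM with OPH, FMK and DMSO and passed no test. Car2 was at 1.42 ± 0.852, 0.639 ± 0.582 and 1.93 ± 1.44 CPM in the same order and passed none. Atp6v1a, a subunit of the proton pump in all cells, fell, at 200 ± 3.14 CPM with OPH, 189 ± 10.4 CPM with FMK and 249 ± 14.7 CPM with DMSO (adjusted p = 0.0107 and 0.00170). Slc9b2 reached the count cutoff in the 3 DMSO libraries and in 0 inhibitor libraries, so it was tested only through DMSO and had to differ. Its fall with OPH was called (-3.51 ± 0.89, adjusted p = 0.0105, not called under 3 of 12 other settings or left-out libraries), and it had 6 counts over the OPH libraries, 3 over the FMK libraries and 71 over the DMSO libraries. Without DMSO library 3, 2 genes of the list rose and 1 fell with OPH, and 1 rose and 3 fell with FMK.

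Of 7 tested fusion genes other than Dcstamp and Ocstamp, calls went both ways, with 1 higher and 3 lower with OPH and 3 higher and 3 lower with FMK. Sirpa, a receptor of myeloid cells, was at 67.9 ± 8.73 CPM with OPH, 48.2 ± 3.04 CPM with FMK and 196 ± 28.7 CPM with DMSO, and fell 2.88-fold with OPH (adjusted p = 5.51e-08) and 4.06-fold with FMK (adjusted p = 1.18e-09). Its ligand Cd47 averaged 504 CPM with OPH, 614 CPM with FMK and 350 CPM with DMSO, and rose in both comparisons (log2 fold change 0.52, adjusted p = 0.000161 and 0.81, adjusted p = 7.02e-07). Adam8, a membrane protease of myeloid cells and osteoclasts, was at 7.88 ± 2.29, 5.11 ± 0.468 and 22.7 ± 6.35 CPM with OPH, FMK and DMSO and fell in both comparisons. Cd44, a hyaluronan receptor, rose with FMK, with a mean of 77.5 CPM with OPH, 124 CPM with FMK and 66.5 CPM with DMSO (adjusted p = 0.123 with OPH and 1.33e-06 with FMK).

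**Figure D5:**
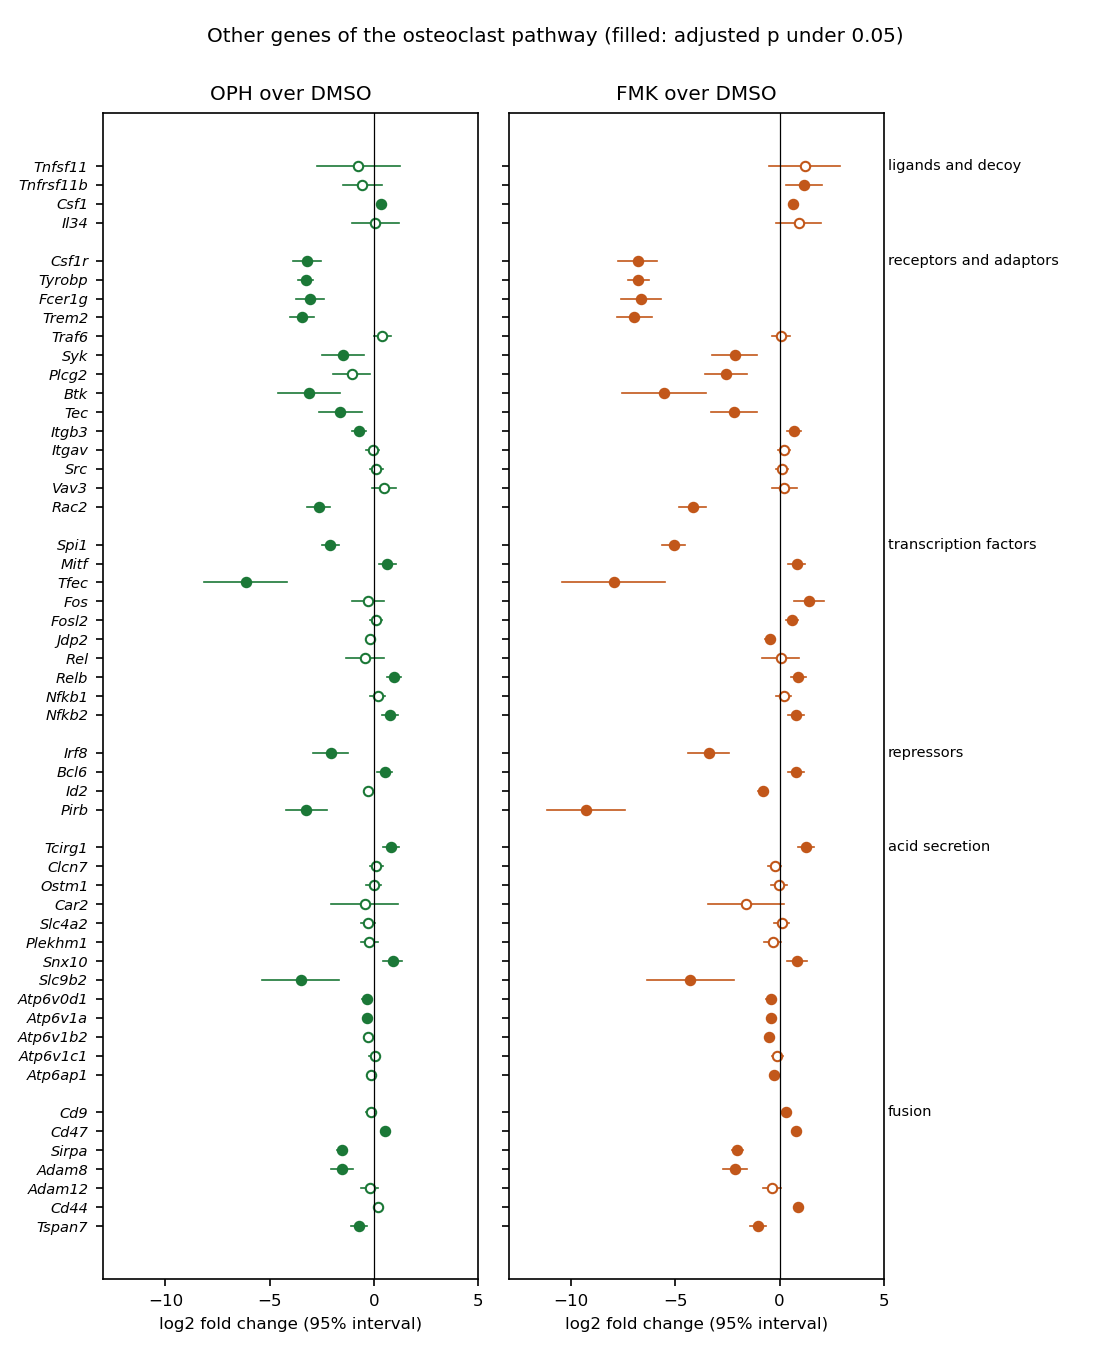
Log2 fold changes, with 95% intervals, of the other tested genes of the osteoclast pathway for OPH over DMSO (left) and FMK over DMSO (right), grouped by role, with filled points at an adjusted p under 0.05. Receptors and adaptors shared with macrophages lie far left, with Tyrobp at -3.26 and -6.78, whereas most acid secretion genes lie near 0. Intervals of Tfec and Pirb with FMK rest on 0 counts and show the fit only.

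Markers of other cell types that the cultures could hold were read beside the osteoclast genes. Neutrophil and mast cell markers summed to at most 1.57 CPM with OPH, 2.61 CPM with FMK and 7.26 CPM with DMSO, and none of the 13 could be tested. Endothelial markers summed to 10.3 to 13.2 CPM with OPH, 10.5 to 18.9 CPM with FMK and 9.16 to 13.5 CPM with DMSO. Of 3 tested, 0 were called with OPH and 1, Egfl7, was higher with FMK (log2 fold change 0.92, adjusted p = 0.0359). That call was not given under 7 of 12 other settings or left-out libraries. In the libraries numbered 3, Egfl7 alone made up 9.34 of 11.1 CPM with OPH, 17.3 of 18.9 with FMK and 5.23 of 9.16 with DMSO. Osteoblast markers, from cells that make RANKL in bone, summed to 17.1 to 33.5 CPM with OPH, 23.7 to 27.4 CPM with FMK and 21.2 to 27.8 CPM with DMSO. Runx2 alone made up 28.6 of 33.5 CPM in OPH library 3, 25.9 of 27.4 in FMK library 3 and 26.0 of 27.8 in DMSO library 3. No other osteoblast marker was above 3.16 CPM in these libraries, so the sums say little about osteoblasts. Of 9 cartilage genes, 4 fell with OPH and 6 with FMK, and the count with OPH was 2 without OPH library 1, OPH library 2, DMSO library 1 or DMSO library 3. With the block for library number, 8 of 9 fell with either inhibitor. The smallest adjusted p was that of Hapln1, which encodes a link protein of cartilage matrix, at 42.5 ± 9.96 CPM with OPH, 47.2 ± 4.15 CPM with FMK and 120 ± 27.9 CPM with DMSO (adjusted p = 0.000603 and 0.000881). Fibroblast and limb mesenchyme genes were lower for 4 of 8 with OPH, and 1 rose and 1 fell with FMK, against 6 lower with OPH and 3 higher and 1 lower with FMK under the block. Of 6 adipocyte genes, edgeR called 0 with OPH and 4 lower with FMK, where the median log2 fold change was -4.64, and their sum was 695 to 2671 CPM with OPH, 109 to 195 CPM with FMK and 463 to 2243 CPM with DMSO. At an unadjusted p under 0.05 the counts were 0 with OPH and 6 lower with FMK, and DESeq2 called the same numbers. The count with FMK was 1 when any FMK library, DMSO library 1 or DMSO library 2 was left out, and 6 with the block, which called 1 higher with OPH. The part of these cell types in the osteoclast results was not tested.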

How the data were processed

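Libraries read from transcript 3′ ends were made per the labels' protocols, and FastQC, MultiQC, cutadapt, STAR, DESeq2 and the build mm10 are named in the submitters' processing notes. The authors deposited whole-number counts per gene, without normalization. Which program counted them, whether strand was used and how reads with several matches were treated is not given in the sources used here. The table holds 52550 genes, and 99 spike-in entries with 1 count in all were left out.

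Genes were filtered with filterByExpr (minimum count 10) and scaled by TMM, and 13255 genes in all 9 libraries were fitted together with edgeR 4.0.16 (quasi-likelihood F test, Benjamini-Hochberg adjustment over all tested genes, threshold 0.05, R 4.3.3). CPM are counts scaled to the library's total after TMM adjustment. A count stands for a transcript end, so levels are not scaled by length. Folds against a group at 0 are set against a floor of 3 counts over the group and given with the lower end of the exact 95% interval. Ratios of few counts carry exact 95% intervals. Intervals and floors cover counting error only. The fit was tested on simulated counts. Alternatives were DESeq2 1.42.0, limma-voom 3.58.1, library size scaling, no filter, only the compared groups, leaving out libraries and a block.

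Library numbers were taken as a possible pairing of the samples. Deviations from group means of equally numbered libraries correlated by 0.102 to 0.344 across genes, above 0.1 in every pair. The reported fit held group alone, and the pairing entered only as an alternative, the block for library number. The pairing comes from these numbers alone and from no stated litter or day. P-values measure the spread between these libraries. No pair of libraries was a copy of another (chi-square per degree of freedom 5.47 to 13.5). The members and gene lists were chosen with earlier results of these data known. Named genes are the members, other listed genes by role, and the 3 genes most like each member. A gene that was among the lists is not reported here.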

Additional observations from a re-analysis of the deposited data

How the results depend on the processing

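No fold change of a member changed sign under any alternative, and of the alternative values of single members 249 kept their side of the threshold, 9 gained a call and 11 lost it. With libraries 1 and 2 of each group only, 2 members were called for FMK against DMSO, Tnfrsf11a and Mmp9. For OPH against FMK, 1 member, Tnfrsf11a, was called with library size scaling alone, with no filter on low counts and with DESeq2, and 0 to 1 members were called when a library was left out. With library number as a replicate block, 1 member and 2139 genes were called for OPH against FMK, against 1175 genes without it. That member was Tnfrsf11a. In the comparisons with DMSO, the block brought Acp5 past the threshold in both and changed no other member's call. Leaving out a library gave 571 to 1050 genes called for OPH against FMK, 571 without OPH library 2, 709 without FMK library 2 and 712 without FMK library 1. It gave 1487 to 1779 genes and 4 to 5 members for OPH against DMSO, and 1979 to 2512 genes and 3 to 4 members for FMK against DMSO.

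Depth limits Oscar, Dcstamp and Ocstamp, which did not pass the filter on low counts, and Atp6v0d2, whose inhibitor libraries held at most 12 counts. Library size scaling moved the median of all tested genes to -0.11 for FMK against DMSO and to 0.12 for OPH against FMK. With 3 libraries a group, an exact permutation test of 1 gene cannot give a p under 0.1. The cause of each changed call was not tested.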
